A study of Mus musculus with 21 samples.

Results

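Bone morphogenetic proteins (BMPs) and the proteins that restrain them were followed through 9 genes of the 24091 in the expression table, chosen by symbol: the ligands Bmp2, Bmp4 and Bmp6, the secreted antagonists Grem1, Nog, Chrd, Chrdl1 and Fst, and the pseudoreceptor Bambi. RNA came from C3H/10T1/2, a line of mesenchymal progenitors from mouse embryo, grown in DMEM with 10% fetal bovine serum, without an agent that induces differentiation named in the labels. The groups were cells with wild-type histone H2B (H2BWT, here WT) and cells with H2BE71K, H2BE71Q, H2BE76K, H2BE76Q, H2BE113K or H2BE113Q, in which lysine (K) or glutamine (Q) replaces a glutamate, with 3 libraries each and 21 in all. The labels do not say how the H2B was introduced, what share of the cells' H2B it made up, or whether a genotype was more than 1 line or clone, and differences between lines and effects of a substitution cannot be told apart. The design text calls the replicates independent and biological and gives no more on how they were kept apart, and p-values measure the spread between these samples only.

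BMPs are dimeric ligands of the TGF-beta superfamily. They bind type I and type II receptor kinases, which phosphorylate SMAD1, SMAD5 and SMAD9, and these enter the nucleus with SMAD4 to switch on genes such as those of the Id family. Gremlin 1, noggin and chordin bind BMPs outside the cell and keep them from their receptors, follistatin (Fst) binds activins with high affinity and some BMPs more weakly, and Bambi lies in the membrane as a receptor without a kinase. In mesenchymal progenitors such as C3H/10T1/2, BMP signalling is known for driving entry into the cartilage, bone and fat lineages.

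The cells carried the markers of their label. Of 10 mesenchymal markers, 9 or 10 had a mean of at least 1 TPM in each group, and the exception was Thy1, at 66.0 ± 0.461 TPM in WT (SD, n = 3) but 0.0791 ± 0.0943 TPM in E71K, 0.963 ± 0.471 TPM in E71Q and 0.472 ± 0.140 TPM in E76Q. Endothelial Pecam1 and pan-leukocyte Ptprc were at or below 0.651 TPM in every library. The 6 endothelial markers summed to 3.26 to 4.09 TPM in E76K, where 2 reached a mean of 1 TPM, and to 2.69 TPM or less elsewhere. The 7 macrophage and blood cell markers summed to 2.15 TPM or less, and 1 reached that mean in each of E71K, E71Q, E76Q and E113Q. The 7 epithelial markers summed to 11.5 to 14.4 TPM in WT but to 81.2 to 488 TPM in E71K and 41.5 to 365 TPM in E71Q, and to 9.79 TPM or less in the other mutants. Epithelial Epcam and Cldn4 were listed at 0 in all of WT, E71K and E71Q, and Krt18 in all of E71K and E71Q but not in all of WT. Of the 3 epithelial markers tested, 1 rose and 2 fell in E71K and in E71Q (limma adjusted p below 0.05). Of all genes 12.5% rose and 14.2% fell in E71K, and 20.7% and 23.5% in E71Q. Most of the sum in E71K and E71Q was the keratin gene Krt14, at 483, 320 and 79.1 TPM in E71K and 363, 40.8 and 40.8 TPM in E71Q. The part of these markers in the results for E71K and E71Q was not tested. E71K replicate 3, E71Q replicate 1, E76K replicate 3 and E113Q replicate 3 lay apart from their mates on the main axis of differences within groups, and results that rest on them are given with and without them. A locus annotated as Mir6236 took between 2.19% and 30.6% of the TPM of a library, which lowers the TPM of the other genes there. The highest shares were in E71K replicate 2 (30.6%, against 3.86% and 2.35% in its mates) and E71Q replicate 1 (21.2%, against 9.90% and 5.47%). E71K replicate 2 is not among the libraries that lay apart. Tested genes as a whole sat 0.16 (E76K) and 0.13 (E113K) log2 units above WT at the median, and 0.01 in either mutant after a median-ratio rescaling, a shift to keep in mind for rises in this pair. Of all genes called in E76K, 70.8% rose as deposited and 53.1% after that rescaling.

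Promoter sequence was available for 4 of the 9 members, Bmp4, Grem1, Chrd and Bmp6. Bmp6, whose RNA was scarce, is left out here, and the other sequences are shown. These are the 250 bases before the RefSeq transcription start (build GRCm38.p6, each read 5′ to 3′ on the gene's strand), with the motif matches in capitals. Grem1 (chr2:113758649-113758898, minus strand), Chrd (chr16:20732877-20733126, plus strand, where RefSeq also has the gene begin further upstream) and Bmp4 (chr14:46390670-46390919, minus strand) read:
Grem1: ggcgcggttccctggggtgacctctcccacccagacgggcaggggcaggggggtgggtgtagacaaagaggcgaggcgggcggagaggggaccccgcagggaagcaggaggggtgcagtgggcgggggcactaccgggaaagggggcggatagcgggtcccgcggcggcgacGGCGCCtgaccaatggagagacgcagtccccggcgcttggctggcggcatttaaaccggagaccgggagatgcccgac
Chrd: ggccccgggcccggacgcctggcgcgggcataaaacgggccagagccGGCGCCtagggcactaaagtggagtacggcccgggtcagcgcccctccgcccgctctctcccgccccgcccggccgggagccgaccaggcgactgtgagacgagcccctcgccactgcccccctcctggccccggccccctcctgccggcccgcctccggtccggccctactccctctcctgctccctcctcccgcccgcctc
Bmp4: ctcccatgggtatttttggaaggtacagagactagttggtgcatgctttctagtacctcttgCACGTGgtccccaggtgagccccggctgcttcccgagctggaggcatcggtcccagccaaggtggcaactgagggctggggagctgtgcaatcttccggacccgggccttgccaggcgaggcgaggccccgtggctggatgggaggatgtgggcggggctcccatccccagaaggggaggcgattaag

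GGCGCC, a GC-rich element that SMAD proteins can bind, began 78 bases before the start of Grem1 and 203 before that of Chrd, and 9.59% of 32851 mouse promoter windows of this length held it on either strand. CACGTG, the E-box, began 188 bases before the start of Bmp4, and 6.02% of windows held it. The other motifs searched, GTCTAGAC (0.167% of windows) and the TATA box TATAAA (12.4%), were not matched in these 3 windows on either strand. No searched motif overlaps another. G and C made up 72.0% of the Grem1 window, 78.0% of that of Chrd and 63.2% of that of Bmp4, against a median of 52.4% over all windows. These matches describe letters and are no evidence of binding.

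Of the 9 members, 5 averaged 1 TPM or more across the 21 libraries and were tested: Bmp4, Grem1, Fst, Chrd and Bambi. Chrdl1 fell just short at 0.999 TPM, and Bmp6, Nog and Bmp2 were at or near 0. In each mutant against WT 3 tested members rose, and 4 did in E76K, with an adjusted p below 0.05 in the limma fit. Over all 12192 tested genes, 12.5% rose in E71K, 20.7% in E71Q, 23.5% in E76K, 22% in E76Q, 30.3% in E113K and 17.9% in E113Q. Members that fell numbered 2 in E71K, 1 in E71Q, 0 in E76K, 2 in E76Q, 1 in E113K and 0 in E113Q, where 14.2%, 23.5%, 9.67%, 22.4%, 20.7% and 12.7% of all genes fell. Without the 4 libraries that lay apart, 4 members rose in E76K, E113K and E113Q, and a further member, Bambi, fell in E76K. In that fit 13.4%, 35.3%, 31.2%, 31.7%, 39.6% and 30.2% of all genes rose, from E71K to E113Q in the order above, and 27.2%, 24.1%, 12.9%, 28.2%, 25% and 14.2% fell. An F test across the 7 groups called all 5, as it did 77.1% of all tested genes.

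**Figure D1:**
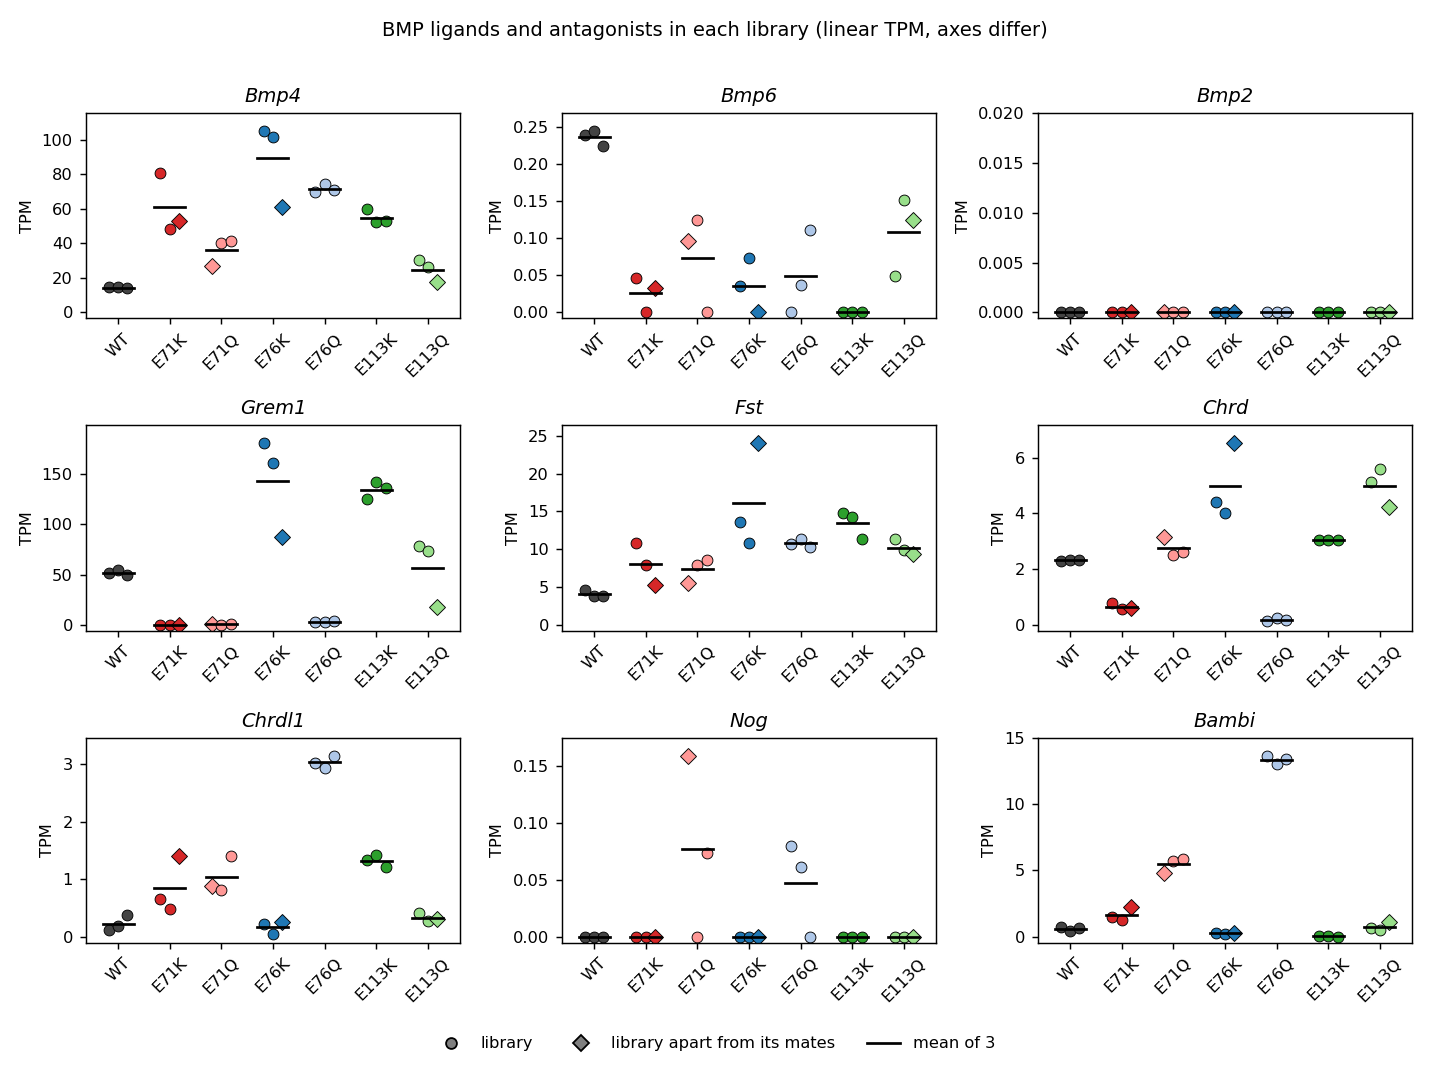
Level of each of the 9 genes in every library in TPM (linear axes that differ between panels), by H2B group. Points are libraries, diamonds are the 4 libraries that lay apart from their mates and black lines are means of 3. Bmp4 and Fst lie above WT in all mutants, while Grem1 is near 0 in E71K and E71Q and highest in E76K and E113K.

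Bmp4, a ligand that patterns mesoderm and can commit progenitors to fat and bone, was higher in all 6 mutants than in WT. Bmp4 (Entrez Gene 12159, chr14:46383525-46390669) stood at 14.6, 14.5 and 14.1 TPM in the WT libraries. The K substitutions gave 81.0, 48.5 and 53.3 TPM in E71K, 105, 102 and 61.2 TPM in E76K and 59.7, 52.4 and 52.8 TPM in E113K. The Q substitutions gave 26.7, 40.5 and 41.1 TPM in E71Q, 69.6, 74.2 and 70.8 TPM in E76Q and 30.6, 26.4 and 17.3 TPM in E113Q. Every mutant library lay above the WT range, with E76K replicate 3, E71Q replicate 1 and E113Q replicate 3 the lowest of their groups. The log2 fold change against WT was 2.51 ± 0.23 in E76K (SE, limma adjusted p = 1.85e-07), 2.24 in E76Q (7.18e-07), 1.97 in E71K (3.5e-06), 1.86 in E113K (5.44e-06), 1.24 in E71Q (0.000364) and 0.71 in E113Q (0.0278). The E113Q call was lost, with a limma adjusted p of 0.0643 to 0.122, when WT replicate 1, 2 or 3 or E113Q replicate 1 or 2 was left out. It was 0.93 without the libraries that lay apart (0.00026). Rises in all 6 mutants were seen for 445 genes (3.65% of those tested), and all 6 comparisons share the same 3 WT libraries.

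The order of Bmp4 levels ran from WT through E113Q, E71Q, E113K, E71K and E76Q to E76K. Neighbouring mutants overlapped in range except E71Q and E113K, which differed by 0.62 on the log2 scale (limma adjusted p = 0.0428; 39.3% of genes were called in that comparison). With all libraries E76K exceeded E76Q by 0.28 ± 0.23 (SE, adjusted p = 0.388), and E76Q exceeded E71K by 0.26 ± 0.23 (0.424), neither passing. Without the libraries that lay apart, the Bmp4 difference of E76K less E76Q was 0.53 (0.0112) and that of E113Q less E71Q was -0.51 (0.025), and both passed.

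The other ligands were scarce. Bmp6 (Entrez Gene 12161, chr13:38345716-38500314), known for its part in iron control and in bone, was at 0.240, 0.245 and 0.225 TPM in WT, and every mutant library lay below that, at 0.151 TPM or less, with all 3 E113K libraries listed at 0. It was too low for the main test. With no filter on level it was called lower in all 6 mutants (limma adjusted p of 6.97e-05 to 0.0187), on differences of a fraction of a TPM. Bmp2 (Entrez Gene 12156), a potent inducer of bone and cartilage, was listed at 0 in all 21 libraries. Of 12 other BMP and GDF ligands none reached the level tested: the highest value was 1.01 TPM, for Gdf7, and their sum was between 0.475 and 1.77 TPM in a library. Bmp4 thus made up 98.3% or more of the summed TPM of Bmp2, Bmp4 and Bmp6 in each library.

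Grem1, which encodes gremlin 1, a high-affinity antagonist of BMP2 and BMP4, fell in 3 mutants and rose in 2. Grem1 (Entrez Gene 23892, chr2:113748675-113758648) was at 51.3, 54.6 and 49.8 TPM in WT. It was nearly absent from E71K (0.0930, 0 and 0.0654 TPM) and from E71Q (0.639, 0.0823 and 0.177 TPM), and low in E76Q (2.31, 2.66 and 3.53 TPM). It was abundant in E76K (181, 162 and 87.6 TPM) and in E113K (125, 142 and 137 TPM). None of these 5 mutants overlapped WT, 3 lying below it and 2 above. E113Q held 78.1, 73.8 and 17.1 TPM, so that 2 of its libraries lay above the WT range and replicate 3, one of the libraries apart, below it.

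The log2 fold change of Grem1 against WT was -5.65 ± 0.39 in E71K (SE, limma adjusted p = 4.39e-09), -5.37 in E71Q (6.82e-09) and -3.80 in E76Q (7.11e-07). It was 1.38 in E76K (0.0123) and 1.36 in E113K (0.00834). The E76K rise was 1.18, with a limma adjusted p of 0.055, without E76K replicate 1, and 1.70 (7.93e-08) without the libraries that lay apart. In E113Q the change was -0.15 (0.806), but 0.54 (0.00199) without the libraries that lay apart, so the E113Q direction rested on replicate 3. The levels of E76K and E113K overlapped and differed by 0.03 ± 0.39 (SE, adjusted p = 0.978), though E113K was lower by 0.35 (0.024) without the libraries that lay apart, and those of E71K and E71Q by 0.28 ± 0.39 (0.64). E76Q was higher than E71Q by 1.57 (0.00799; 19.7% of genes were called in that comparison).

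Markers of other lineages differed between the groups, for some lists along with Grem1 and for others not. The 11 chondrocyte markers summed to 132 to 142 TPM in WT, 96.9 to 119 in E76K and 106 to 112 in E113K. In the mutants with little Grem1 they summed to 341 to 1007 TPM in E71K, 405 to 576 in E71Q and 858 to 938 in E76Q, and in E113Q to 211 to 326. At least 1 TPM was reached by 5 of these 11 markers in WT, 8 in E71K, 8 in E71Q, 6 in E76K, 7 in E76Q, 4 in E113K and 7 in E113Q. The cartilage proteoglycan gene Acan was listed at 0 in every library of 5 groups and at most at 0.0425 TPM in E71K and E76Q. The 8 adipocyte markers summed to 20.9 to 23.8 TPM in WT, 81.6 to 124 in E76K, 90.2 to 102 in E113K and 37.0 to 55.6 in E113Q. They summed to 6.34 to 7.82 TPM in E71K and 17.1 to 18.5 in E76Q, but to 31.2 to 36.5 in E71Q, above WT. Of these 8, between 2 and 4 reached a mean of 1 TPM in a group, and Lep was listed at 0 in every library. The 7 smooth muscle markers did not split by Grem1. They summed to 532 to 634 TPM in E76Q, 71.2 to 87.4 in E71Q and 116 to 202 in E71K. In WT they summed to 172 to 183 TPM, in E76K to 324 to 401 and in E113K to 342 to 354. The 8 osteoblast markers summed to 1371 to 1573 TPM in WT and to 1026 or less in every mutant library, with 629 to 988 in E76K and 832 to 884 in E113K. The markers did not all follow the sum. Of the 4 tested, 2 rose and 1 fell in E113K (30.3% and 20.7% of all genes). In E76K and E113Q 0 rose and 1 fell (23.5% and 9.67%, 17.9% and 12.7%). In E71K 0 rose and 2 fell (12.5% and 14.2%), and in E71Q and E76Q 1 rose and 2 fell (20.7% and 23.5%, 22% and 22.4%). Krt14 was high in E71K and E71Q, as given above. The part of these marker shifts in the Grem1 values was not tested, and in bulk RNA fewer cells of a type and less RNA per cell cannot be told apart.

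**Figure D2:**
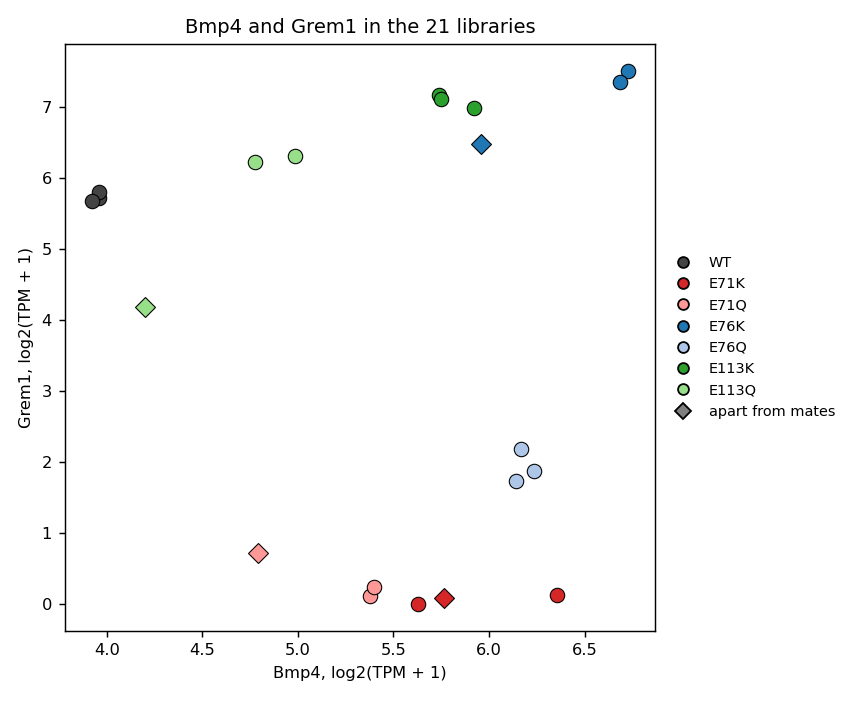
Bmp4 against Grem1 in each of the 21 libraries, both as log2(TPM + 1), coloured by H2B group. WT has the lowest Bmp4 with high Grem1; E71K, E71Q and E76Q combine raised Bmp4 with little Grem1, and E76K and E113K are high in both.

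Fst, which encodes follistatin, was higher in all 6 mutants. Fst (Entrez Gene 14313, chr13:114452262-114458989) was at 4.53, 3.80 and 3.80 TPM in WT. With all libraries the highest group was E76K, with 13.6, 10.9 and 24.0 TPM, where replicate 3, one of the libraries that lay apart, stood above its mates. E113K had 14.8, 14.3 and 11.3 TPM, E76Q 10.6, 11.3 and 10.3 TPM and E113Q 11.3, 9.83 and 9.38 TPM. The lowest mutants were E71K (10.8, 7.89 and 5.28 TPM) and E71Q (5.54, 7.95 and 8.52 TPM), still above the WT range in every library.

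The log2 fold change of Fst was 1.69 ± 0.24 in E76K (SE, limma adjusted p = 2.98e-05), 1.51 in E113K (6.11e-05), 1.23 in E76Q (0.000544), 1.15 in E113Q (0.00143), 0.79 in E71K (0.0193) and 0.71 in E71Q (0.0227). Without the libraries that lay apart it was 1.39 in E76K (limma adjusted p = 4.15e-06) and 1.51 in E113K (2.45e-07), so the top rank of E76K rested on replicate 3. The calls at E71 were fragile. They passed without the libraries that lay apart (1.03 in E71K, limma adjusted p = 6.24e-05, and 0.88 in E71Q, 0.000137) but were lost under other settings. The E71K call was lost without WT replicate 2 (limma adjusted p = 0.0611), WT replicate 3 (0.0634) or E71K replicate 1 (0.101), and in a fit of the 6 libraries alone (0.114). The E71Q call was lost without WT replicate 2 (0.0637), WT replicate 3 (0.0663), E71Q replicate 2 (0.076) or E71Q replicate 3 (0.0888), and with a pseudocount of 5 (0.055). Adjacent mutants in the order of Fst levels all overlapped, with adjusted p of 0.331 or more. Lysine and glutamine at the same residue were not separated in Fst at any of the 3 positions (adjusted p = 0.841 at E71, 0.144 at E76 and 0.271 at E113), with all libraries. The E76 difference was 0.47, and 0.70 with an adjusted p of 0.0496 without E76K replicate 2.

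Chrd encodes chordin, which holds BMPs in a complex that proteases of the tolloid family cleave. Chrd (Entrez Gene 12667, chr16:20731425-20742384) was at 2.28, 2.31 and 2.34 TPM in WT, and fell to 0.770, 0.555 and 0.588 TPM in E71K and to 0.133, 0.238 and 0.169 TPM in E76Q. It rose to 4.42, 4.01 and 6.52 TPM in E76K and to 5.12, 5.60 and 4.22 TPM in E113Q. E71Q (3.17, 2.49 and 2.62 TPM) and E113K (3.04, 3.04 and 3.03 TPM) lay above the WT range in every library without passing the test. So WT overlapped no mutant, with 4 mutants above it and 2 below.

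The log2 fold change of Chrd was -1.49 ± 0.15 in E76Q (SE, limma adjusted p = 4.26e-07), -1.02 in E71K (3.92e-05), 0.85 in E113Q (0.000298) and 0.83 in E76K (0.000326). E113K, at 0.29 (0.112), passed without the libraries that lay apart (0.00689) and in a fit of its 6 libraries alone (0.00136), and E71Q was at 0.18 (0.341). With all libraries E76K and E113Q could not be told from each other (0.01 ± 0.15 on the log2 scale, SE, adjusted p = 0.977), nor E71Q from E113K (0.11 ± 0.15, 0.596). Without the libraries that lay apart, the Chrd change against WT was 0.66 in E76K (limma adjusted p = 6.57e-05), 0.94 in E113Q (2.34e-06) and 0.10 in E71Q (0.342). E76Q was lower than E71K by 0.47 (0.0262; 25.4% of genes were called in that comparison).

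Chordin-like 1, a related secreted antagonist encoded by Chrdl1 (Entrez Gene 83453, chrX:143285674-143394263), was low throughout and highest in E76Q. It was at 0.125, 0.188 and 0.380 TPM in WT and at 3.02, 2.93 and 3.15 TPM in E76Q. E113K (1.34, 1.42 and 1.22 TPM), E71Q (0.882, 0.815 and 1.41 TPM) and E71K (0.656, 0.489 and 1.41 TPM) also lay above the WT range, while E76K (0.223, 0.0509 and 0.264 TPM) and E113Q (0.408, 0.283 and 0.306 TPM) overlapped it. With no filter on level, limma called Chrdl1 higher in E76Q (adjusted p = 1.54e-07), E113K (0.000121), E71Q (0.00125) and E71K (0.0104). Nog (Entrez Gene 18121), which encodes noggin, was above 0 in 4 libraries only, 2 of E71Q and 2 of E76Q, and at most 0.159 TPM. In that unfiltered fit Nog was called in E71Q (limma adjusted p = 0.0411), on 0.159, 0 and 0.0733 TPM.

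Because TPM are normalized to length, the antagonists can be summed. The 5 secreted antagonists together came to 58.5 ± 2.31 TPM in WT (SD, n = 3), of which Grem1 made up 88.7%. The sum was 165 ± 41.7 TPM in E76K and 152 ± 8.16 TPM in E113K, with Grem1 at 85.5% and 88.3%. It was 9.54 ± 2.55 TPM in E71K, 11.5 ± 1.22 TPM in E71Q and 16.9 ± 0.587 TPM in E76Q, where Fst was the most abundant antagonist, with 82.6%, 63.3% and 63.9% of the sum. In E113Q the sum was 71.8 ± 35.4 TPM, with 73.3% Grem1.

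Set against the summed ligands, antagonist RNA exceeded ligand RNA in WT, E76K, E113K and E113Q and fell short of it in E71K, E71Q and E76Q. The log2 ratio of the sums was 2.00 ± 0.04 in WT (SD, n = 3), 1.47 ± 0.18 in E113K and 0.89 ± 0.09 in E76K, and between 0.83 and 1.75 in the E113Q libraries. It was -1.63 ± 0.24 in E71Q, -2.09 ± 0.03 in E76Q and -2.67 ± 0.21 in E71K. The lowest E113Q value, 0.83, came from replicate 3. The ratio was below the lowest WT library in all 18 mutant libraries. The sums hold these 5 antagonists and no others. Nbl1, a gene of the gremlin family described further on, averaged 71.1 TPM in E71Q, more than the 36.2 TPM of the ligands there, so that counting it would turn the direction in E71Q. Of the other genes listed further on as antagonists or modulators, Twsg1 was at 43.9 TPM or more and Fstl1 at 266 TPM or more in every library. The shortfall in E71K, E71Q and E76Q thus depends on which genes are counted. The ratio is one of RNA levels, described without a test, and not a measure of free protein.

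**Figure D3:**
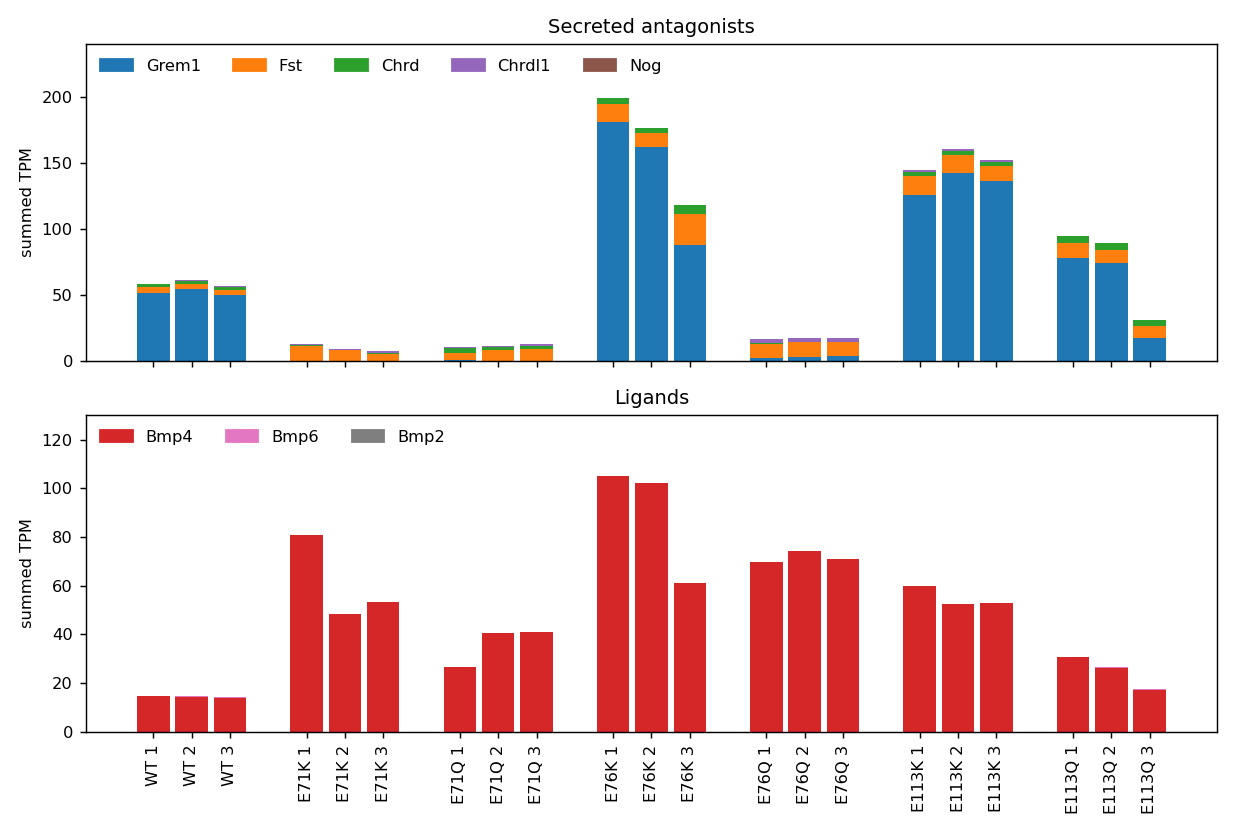
Summed TPM of the 5 secreted antagonists (top) and of the 3 ligands (bottom) in each library, stacked by gene. Grem1 fills most of the antagonist bar in WT, E76K, E113K and E113Q and Fst in E71K, E71Q and E76Q; Bmp4 is 98.3% or more of every ligand bar.

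Bambi (Entrez Gene 68010), the pseudoreceptor, which is itself a known BMP target, was high in the 3 mutants with little Grem1 and low in E76K and E113K. Within the former set the means of both genes ran in the same order, from E71K through E71Q to E76Q. For Grem1 the ranges of E71K and E71Q overlapped and the 2 groups were not separated (0.28 on the log2 scale, limma adjusted p = 0.64). Bambi was at 0.706, 0.435 and 0.696 TPM in WT. It rose to 13.6, 13.0 and 13.4 TPM in E76Q, to 4.82, 5.69 and 5.84 TPM in E71Q and to 1.51, 1.24 and 2.28 TPM in E71K. It fell to 0.0360, 0.0571 and 0.0227 TPM in E113K, and E76K had 0.306, 0.251 and 0.288 TPM. Those 5 mutants did not overlap WT, while E113Q, with 0.698, 0.492 and 1.11 TPM, did. Its high groups are those whose chondrocyte markers summed highest, as given for Grem1, and their part in Bambi was not tested.

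The log2 fold change of Bambi was 3.16 ± 0.16 in E76Q (SE, limma adjusted p = 5.43e-11), 2.00 in E71Q (2.02e-08), 0.72 in E71K (0.00242) and -0.63 in E113K (0.00334). E113K missed the threshold with a pseudocount of 5 (limma adjusted p = 0.0505), and values this low weigh little on the log2(TPM + 1) scale. E76K, at -0.33 (0.123), passed under other settings, among them the median-ratio rescaling (0.0276) and the fit without the libraries that lay apart (0.0227). E113Q was at 0.12 (0.598). Neighbours in level from WT upwards were separated from E113Q on: E71K exceeded E113Q by 0.59 (0.013; 20.3% of genes were called in that comparison), E71Q exceeded E71K and E76Q exceeded E71Q. Below them E113K and E76K did not differ by the test (0.30 ± 0.16, SE, adjusted p = 0.156), though their libraries did not overlap, and passed without the libraries that lay apart (0.0315).

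**Figure D4:**
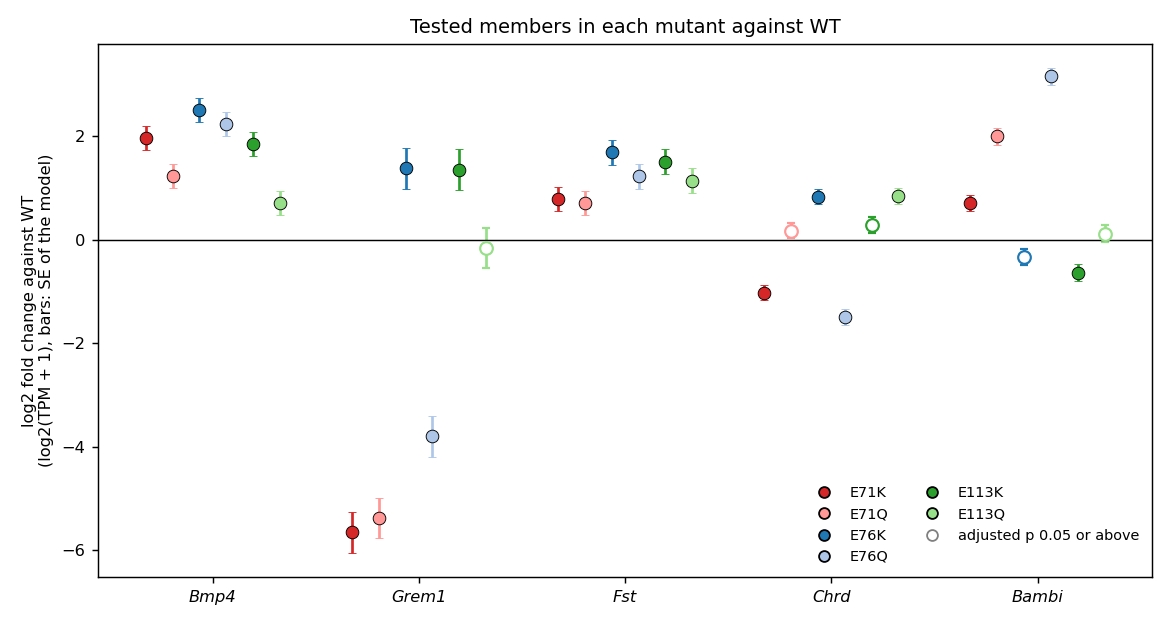
Log2 fold change against WT of the 5 tested genes in each mutant, on the log2(TPM + 1) scale, with SE of the model. Filled points passed an adjusted p of 0.05 and open points did not; Bmp4 and Fst are above 0 in all 6 mutants, whereas Grem1, Chrd and Bambi take both signs.

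Lysine and glutamine at the same residue were compared next, since lysine reverses the charge of glutamate and glutamine removes it. At E71, 3 of the 5 tested members differed, against 25.1% of all genes: E71K had less Chrd (log2 difference -1.20, limma adjusted p = 1.91e-05) and less Bambi (-1.29, 2.01e-05) and more Bmp4 (0.73, 0.0293) than E71Q. The Bmp4 difference was lost without E71K replicate 1 (0.162) or E71Q replicate 1 (0.112) and in a fit of the 6 libraries alone (0.228). At E76, 3 differed, against 31.9% of all genes. E76K had more Grem1 (5.18, 1.67e-08) and more Chrd (2.32, 1.45e-09) and less Bambi (-3.48, 1.72e-11) than E76Q.

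At E113, 4 of the 5 members differed, against 28% of all genes. E113K had more Grem1 (1.51, limma adjusted p = 0.00845) and more Bmp4 (1.15, 0.00139), and less Chrd (-0.56, 0.00933) and less Bambi (-0.75, 0.00204) than E113Q. The Grem1 difference was 0.82 (8.11e-05) without the libraries that lay apart, and had an adjusted p of 0.107 in a fit of the 6 libraries alone. Bambi was thus lower with lysine than with glutamine at each of the 3 residues. Chrd was lower with lysine at E71 and E113 and higher with lysine at E76. Whether a difference between lysine and glutamine was itself different at 2 residues was tested as an interaction. Of the 5 tested members 3 passed between E76 and E71 (21.7% of all genes), 2 between E113 and E71 (32.7%) and 3 between E113 and E76 (29.5%).

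Over the 21 libraries, Grem1 and Chrd had a Pearson correlation of 0.67 on the log2 scale, Grem1 and Bambi -0.75, Chrd and Bambi -0.70 and Fst and Bmp4 0.69, while Grem1 and Bmp4 had -0.09. These describe 21 points that fall into 7 groups. Of the tested genes averaging 5 TPM or more, those most like Grem1 were Plau, the urokinase plasminogen activator (r = 0.97), and Fam107b (0.96). Plau was at 0.103 ± 0.0747 TPM in E71K, 10.5 ± 0.599 TPM in WT and 38.9 ± 3.46 TPM in E113K (SD, n = 3). Most like Bmp4 were Amotl2, which encodes an angiomotin (0.91), and Smad6, an inhibitory SMAD (0.89). Emp3 and Dhrs4 were most like Chrd (0.93 and 0.92), and the nonmuscle myosin Myh10 and Epdr1 most like Fst (0.87 and 0.86).

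Among the ligands that Fst binds best, the activin subunit gene Inhba rose in all 6 mutants. Inhba was at 1.58 to 1.99 TPM in WT, and its groups ran from 6.66 to 8.29 TPM in E113Q up to 12.1 to 16.9 TPM in E71Q. Its log2 fold change lay between 1.63 (E113Q) and 2.53 (E71Q). Inha, the inhibin alpha subunit, rose in E71Q, E76K, E76Q and E113K and reached 5.10 ± 0.943 TPM in E113K against 1.60 ± 0.208 TPM in WT (SD, n = 3). Inhbb and Inhbe were below the level tested.

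Of 13 other secreted antagonists and modulators 6 were tested. Bmper, which encodes crossveinless-2, a BMP-binding modulator, rose in all 6 mutants, from 0.486 to 0.811 TPM in WT to 13.4 to 15.7 TPM in E113K (log2 fold change 3.24) and to between 1.06 and 3.92 TPM in the libraries of the other mutants. Nbl1, of the DAN family to which gremlin belongs, fell in 5 mutants and rose in E71Q. It was at 38.6 to 40.3 TPM in WT, 10.6 to 12.6 TPM in E76Q, 10.8 to 12.9 TPM in E76K and 61.6 to 87.5 TPM in E71Q. Dand5, of the same family, rose in E71Q (0.65) and E113Q (1.12), and Fstl1, a follistatin-like glycoprotein, in E76Q (0.84) and E113K (1.49). In Fstl1 the apart library E71K replicate 3 held 834 TPM against 356 and 266 TPM in its mates. In E71K 1 of the 6 rose and 1 fell, near the 12.5% and 14.2% of all genes. Without the libraries that lay apart, 1 rose and 5 fell there, where 13.4% and 27.2% of all genes did. Leaving these out also took the number that rose in E71Q from 3 to 5 (20.7% and 35.3% of all genes), and in E113Q 3 rose and 3 fell in place of 2 and 1 (30.2% and 14.2% of all genes, from 17.9% and 12.7%). The number that fell in E76K went from 1 to 2 (9.67% and 12.9%). After the median-ratio rescaling 2 fell in E71K and 3 in E113Q. Of all 12192 genes 5135 were then called in E71K (51.3% of them rose) and 5592 in E113Q (53.1%).

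Of the proteases that cleave chordin or mature BMPs, 4 of 6 were tested. Tll1, a tolloid-like chordin protease, rose in 5 mutants, from 0.244 to 0.396 TPM in WT to 2.60 to 6.88 TPM in E71Q, and stayed at 0.258 to 0.394 TPM in E76Q (log2 fold change 0.00). Pcsk6, a proprotein convertase, rose in E76Q (2.32), E71K (1.31) and E113Q (0.85) and fell in E113K (-0.70). Bmp1, the main tolloid protease and despite its name no BMP ligand, and the convertase Furin passed in no mutant against WT with all libraries, with means of 34.0 to 61.2 TPM for Bmp1 and 37.8 to 51.6 TPM for Furin. Without the libraries that lay apart, both fell in E71K (-0.69 for Bmp1, limma adjusted p = 0.000239, and -0.61 for Furin, 0.000263). In that fit Bmp1 also rose in E71Q (0.62, 0.00033) and E76Q (0.33, 0.0107) and fell in E76K (-0.47, 0.00381). Of the 4 proteases 2 then rose and 2 fell in E71K, in place of 2 and 0, against 13.4% and 27.2% of all genes.

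Receptors and co-receptors moved in different directions, and 9 of 12 were tested. Eng, the co-receptor endoglin, fell in 5 mutants, with a log2 fold change of -3.36 in E71K, -2.87 in E71Q, -2.99 in E76K, -2.98 in E76Q and -0.63 in E113Q. It was at 19.7 to 22.2 TPM in WT and 18.9 to 21.7 TPM in E113K, where it did not pass (-0.06), and at 2.30 TPM or less in every library of E71K, E71Q, E76K and E76Q. The type II receptor gene Acvr2a rose in every mutant but E113K, and Bmpr2 in E71K, E71Q, E76Q and E113K. Tgfbr3, the co-receptor betaglycan, and the RGM co-receptor genes Rgma and Rgmb rose in E113K (0.64, 0.62 and 1.03) and fell in E76Q (-0.82, -0.68 and -0.53). Counting all 9, 6 rose and 0 fell in E113K (30.3% and 20.7% of all genes did), 2 rose and 4 fell in E76Q (22% and 22.4%), and 2 rose and 3 fell in E71K (12.5% and 14.2%). In E71Q 3 rose and 3 fell (20.7% and 23.5%), in E76K 1 and 1 (23.5% and 9.67%) and in E113Q 2 and 2 (17.9% and 12.7%). Without the libraries that lay apart 6 fell in E71K (27.2% of all genes), and 4 rose in E76Q (31.7%), 4 in E113Q (30.2%) and 2 in E76K (31.2%). After the median-ratio rescaling 5 fell in E71K, and 4 rose in E76Q and 3 in E76K. In that fit 5135 of all 12192 genes were called in E71K (51.3% of them rose), 7249 in E76Q (52%) and 5495 in E76K (53.1%). With replicate number as a block 4 rose in E76K, where 4238 of all genes were called and 71.4% of those rose.

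Of 10 SMADs and their regulators, all tested, between 2 and 5 rose in a mutant and 1 at most fell, with a median log2 fold change of -0.03 to 0.33. Of all genes 12.5% to 30.3% rose and 9.67% to 23.5% fell in these comparisons. Without the libraries that lay apart the number that rose went from 2 to 4 in E71Q and E76Q and from 3 to 5 in E76K, and 2 fell in E113K, where 35.3%, 31.7%, 31.2% and 25% of all genes did so. After the median-ratio rescaling 5 rose in E71K, 4 in E71Q and 4 in E76Q, and 2 fell in E71Q and 2 in E113Q. Of all 12192 genes 5135 were then called in E71K (51.3% of them rose), 7199 in E71Q (49.7%), 7249 in E76Q (52%) and 5592 in E113Q (53.1%). Smad1, a receptor-activated SMAD, passed in E113K, where it rose (0.46; 17.0 to 19.3 against 12.5 to 12.9 TPM). The member that moved most was Zfp423, a zinc-finger partner of BMP SMADs known for its part in fat precursors. It was at 0.181 to 0.242 TPM in WT, 7.19 to 7.73 TPM in E113K and 3.78 to 6.04 TPM in E71Q, and rose in all mutants but E76Q, where it stood at 0.154 to 0.353 TPM. Tob1, a repressor of BMP SMADs, rose in E71K, E71Q, E76Q and E113Q, and Ski, a SMAD co-repressor, in E76K, E76Q and E113K.

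Most of the tested BMP target and feedback genes rose in each mutant. Of 13 listed, 10 were tested, and 10 rose in E71K, 9 in E71Q, 8 in E76K, 6 in E76Q, 7 in E113K and 6 in E113Q, while 1, Smad9, fell in E76K. Of all tested genes 12.5%, 20.7%, 23.5%, 22%, 30.3% and 17.9% rose in the same order. Without the libraries that lay apart, 10 rose in E76Q, against 31.7% of all genes. Their median log2 fold change was 1.38, 1.28, 1.31, 1.39, 0.53 and 0.68 in the same order, beside a median of all genes of 0.00 to 0.16. The mutants with high Grem1 were not uniform in it: the median over these genes was at least 1.15 in each E76K library and between 0.48 and 0.63 in those of E113K. E113Q replicate 3, a library that lay apart, had 0.19 against 0.97 and 0.82 in its mates. It held the least Grem1 of its group and also the least Bmp4, at 17.3 TPM against 30.6 and 26.4 TPM. The part of Grem1 or Bmp4 in the levels of these target genes was not tested.

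Id3, an inhibitor of basic helix-loop-helix factors, rose in all 6 mutants, from 92.6 to 99.9 TPM in WT to 168 to 238 TPM in E113Q and 326 to 370 TPM in E76K. The homeobox gene Dlx5 rose in all 6 as well, from 1.45 to 2.87 TPM to 23.0 to 54.6 TPM in E71K and 31.2 to 31.4 TPM in E76Q, as did Smad6. Atoh8, a basic helix-loop-helix gene, went from 9.21 to 10.3 TPM in WT to 56.9 to 65.8 TPM in E76Q, and its E113K mean was 12.9 TPM. Id4 varied most of the Id genes. It was at 0.175 to 0.191 TPM in WT, 19.4 to 20.8 TPM in E76Q and 0 to 0.244 TPM in E113K, and its log2 fold change was 4.16 in E76Q, 2.23 in E71K, 1.36 in E71Q and 1.22 in E76K, with -0.10 in E113K and 0.40 in E113Q not passing.

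**Figure D5:**
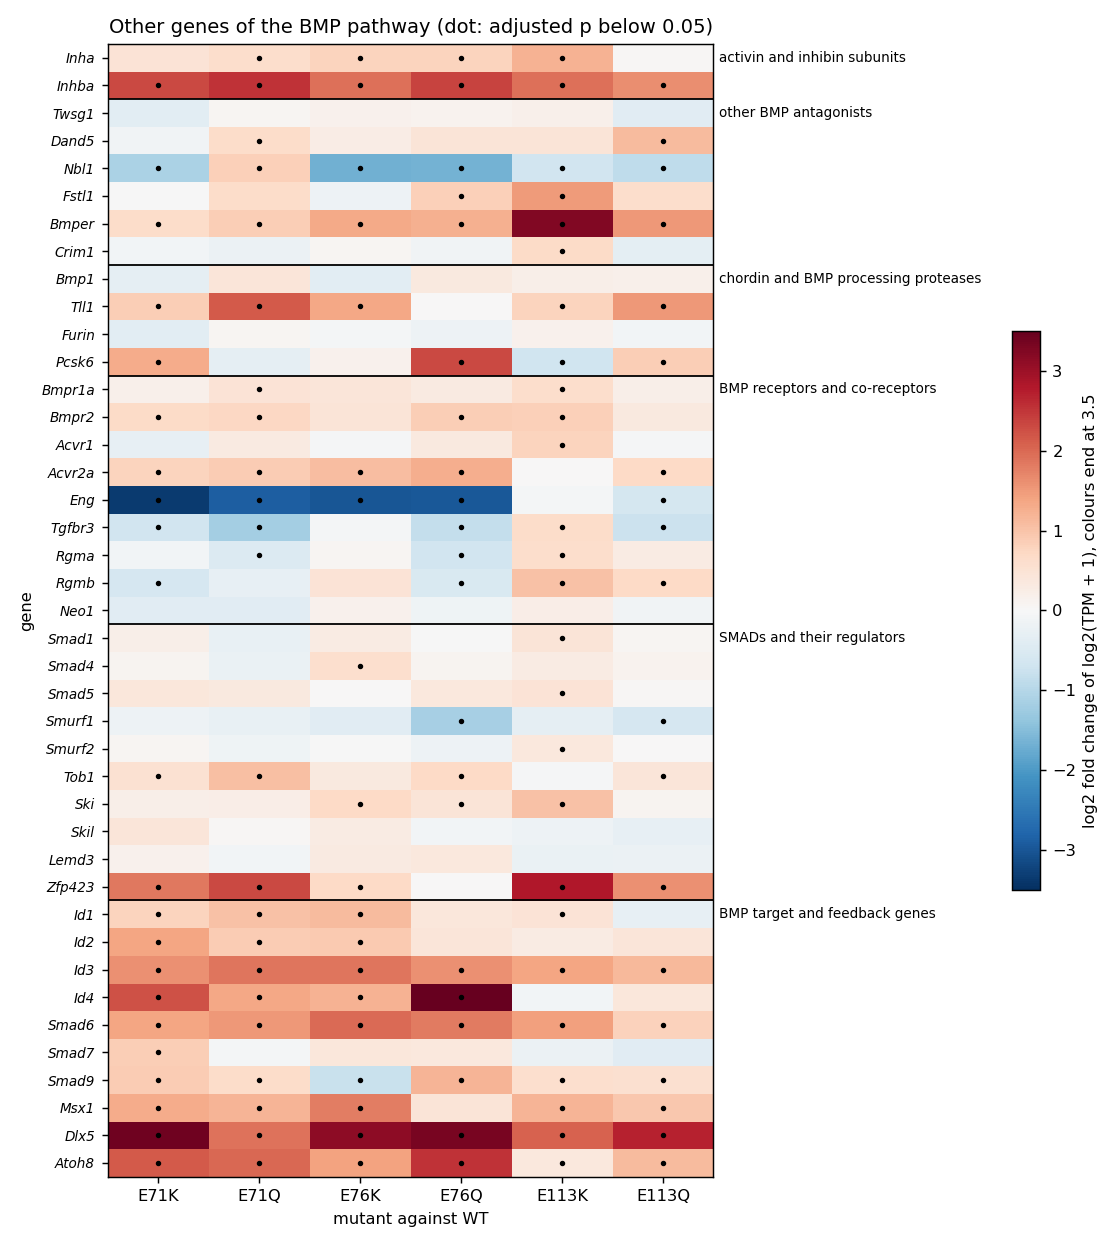
Log2 fold change against WT of the tested genes of the other pathway lists (rows, grouped by list) in the 6 mutants (columns), on the log2(TPM + 1) scale. Dots mark an adjusted p below 0.05; target genes such as Id3, Smad6 and Dlx5 are red in all columns, Eng is blue in all but E113K, and Nbl1 is red in E71Q and blue in the other 5.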

How the data were processed

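RNA of 21 libraries (7 groups of 3) was taken as TPM (transcript abundance scaled for length, with the same total in every library) for 24091 genes, the unit the authors deposited. Per the submitters' processing notes, Salmon, featureCounts 1.4.4 and DESeq were used with genome build mm10, with no role given to any of them. Each library summed to between 999897 and 999931 TPM. TPM keeps no read total, so depth is unknown and no counting interval or limit for a value of 0 was given. The deposited group means were not used.

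Values were used as log2(TPM + 1). Testing was restricted to the 12192 genes that averaged 1 TPM or more across the 21 libraries. Using limma 3.58.1 (R 4.3.3), each group received 1 coefficient in a linear model of all libraries, and variances were moderated along a trend in intensity, on 14 residual and 3.19 prior degrees of freedom. Adjusted p-values are Benjamini-Hochberg values over all tested genes of a comparison, and the threshold was 0.05. The procedure was tested on simulated data. A fold change is the difference between group means on that scale, where genes near 0 appear to change less than they do. TPM carry the SD of 3 libraries and fold changes the SE of the model.

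The members and gene lists were chosen with earlier results of these data known. Of each list, the 4 genes with the smallest F test p are named first, and other list genes are named where a count turns on them. Comparisons of E76Q with E71K, of E113K with E71Q, of E113Q with E71K, of E113Q with E76K and of E113K with E76Q were added after the data were seen, to compare neighbours in the order of levels. Replicate numbers were not used as pairs: samples of the same number deviated together with correlations of -0.17 to 0.42, and 13 of 63 were over 0.1. Libraries that lay apart were defined as the farthest from their mates in groups that spanned more than 10 on the first principal component of the differences within groups, made without the group placed on it. The alternatives tried were other pseudocounts, filters, scalings and moderation, a replicate block, fits of 6 libraries, and libraries left out. Positions and sequences are those of RefSeq on GRCm38.p6 (mm10), where all 9 members matched by Entrez Gene identifier and 4 had a promoter sequence available. The genes most like Bambi are not reported here.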

Additional observations from a re-analysis of the deposited data

Results flagged for a closer look

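Of 15 interactions of the 5 tested genes, 8 passed, where 21.7% (E76 and E71), 32.7% (E113 and E71) and 29.5% (E113 and E76) of all genes did: these differences between lysine and glutamine were not the same at 2 residues, by the limma test of the interaction itself (values are on the log2 scale, K minus Q at the one residue less K minus Q at the other). Between E76 and E71, Grem1 differed by 5.46 (SE 0.555, adjusted p = 1.07e-06), Chrd by 3.52 (SE 0.208, 1.07e-09) and Bambi by -2.2 (SE 0.225, 1.13e-06). Between E113 and E71, Grem1 differed by 1.79 (SE 0.555, adjusted p = 0.02 by limma) and Chrd by 0.64 (SE 0.208, 0.0257). Between E113 and E76, Grem1 differed by -3.67 (SE 0.555, limma adjusted p = 0.000108), Chrd by -2.88 (SE 0.208, 1.67e-08) and Bambi by 2.73 (SE 0.225, 8.96e-08). Fst and Bmp4 passed in none of the 3 interactions. Bambi between E113 and E71, at 0.53 (limma adjusted p = 0.0781), passed without the libraries that lay apart (0.90, 0.0003).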

How the results depend on the processing

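Of 792 values of single genes under the alternatives, 761 kept their side of the threshold, 20 lost the call, 10 gained it and 1 reversed. A change of sign was counted as reversed only where the value was called in either fit. Values called in neither could change sign among the 761, as Bambi in E113Q did (0.12 with all libraries, -0.01 without those that lay apart). Of 253 counts of members 243 stayed within 1.5 times. The reversed value was Grem1 in E113Q, -0.15 with all libraries and 0.54 without those that lay apart. A filter at a mean of 5 TPM leaves out Chrd and Bambi, so that 3 members were called in E71K and 3 in E76Q, 1 between E71K and E71Q, 1 between E76K and E76Q, 2 between E113K and E113Q, 3 in the F test and 3 of the interactions, and the 6 pairs that share a substituted amino acid gave 10 calls in place of 21. At that filter 2447 of 9922 genes were called in E71K and 4397 in E76Q. Between lysine and glutamine, 2514 were called at E71, 3105 at E76 and 2830 at E113. With no filter 7 members were called in E71Q, as were 6366 of 20157 genes. With Mir6236 left out the interactions passed 13 times in place of 8; Chrdl1 then passes the filter. With replicate number as a block, which the data do not show to pair the samples, the members called against WT were 5, 4, 4, 5, 4 and 3 (E71K, E71Q, E76K, E76Q, E113K, E113Q). These are the same counts as without the block. Of all 12192 genes 3395, 5545, 4238, 5596, 6322 and 3955 were called with the block, in the same order. The interactions of members then passed 9 times. Of all genes called, the share that rose was 70.8% in E76K and 53.1% after the median-ratio rescaling. With Mir6236 left out it was 65.7% in E71K (46.9% as deposited), 59.7% in E71Q (46.8%) and 61.1% in E76Q (49.5%). Depth is unknown, so what it limits at values below 1 TPM (Bmp6, Nog, Chrdl1) cannot be stated.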
